A study of Mus musculus with 4 samples.

Results

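Zinc and copper transporters, metallothioneins and the factor that controls them were described on 4 single-colour arrays, and their targets were taken by a rule on gene names. The rule took every target whose annotated name is Slc39a or Slc30a with a number, Mt1 to Mt4, Mtf1, Slc31a1, Slc31a2, Atp7a or Atp7b. It found 62 targets of 33 genes among 44170 targets on the array. A target is a transcript that 3 probes represent, and it is called here by the identifier of that transcript in the files. By the labels, the 2 arrays of the knockdown group hold RNA of Neuro2a (N2a) cells, a mouse neuroblastoma line, transfected with Men1 siRNA, and the other 2 arrays hold RNA of the same line transfected with scramble siRNA. Both groups grew in the same serum-containing medium, and no time after transfection, number of cultures or siRNA sequence was given in the sources used here. The labels do not call the replicates separate cultures, so the p-values describe the spread between these arrays only. Men1 encodes menin, a scaffold of a histone methyltransferase complex.

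Zinc enters the cytosol through the ZIP proteins encoded by Slc39a genes, from outside the cell or from organelles. The ZnT proteins encoded by Slc30a genes move zinc the other way, out of the cell or into vesicles and the Golgi. Metallothioneins are small cysteine-rich proteins that bind zinc and copper, and Mtf1 encodes the zinc-sensing transcription factor that induces metallothionein genes and Slc30a1 when zinc rises. Copper enters through Ctr1, encoded by Slc31a1, and leaves through the ATPases of Atp7a and Atp7b, which are mutated in Menkes and Wilson disease. In the forebrain, Slc30a3 loads zinc into synaptic vesicles of glutamatergic neurons, and Mt3 is the metallothionein known from the brain.

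Some facts of the whole arrays bear on these genes. Random probes read 42.8 to 52.3 and array medians were 145.9 to 151.2, and targets under 100 were treated as not well above background. Men1 had 2764 and 4109 with Men1 siRNA and 6985 and 6222 with scramble siRNA at its brighter target, −0.97 ± 0.36 as a log2 change (SE; 2 arrays in each group), which did not pass in limma (adjusted p = 0.336). Its other target had −0.19 (limma adjusted p = 0.842). The labelled cell type was checked against markers: Tbr1, a gene of forebrain projection neurons, read 1450 to 3150 and the globin gene Hbb-b1 7273 to 23472. These markers go against RNA of a neuroblastoma line alone, so the groups are named here as the labels name them. The 6 measured neuroblast markers of 9 listed had a median log2 change of 0.20, 6 neuron markers 0.46 and 3 red cell markers 0.86, and 0 of them passed in limma (1 of each list at an unadjusted p under 0.05); the other listed markers were not analysed here. Of 12 epithelial markers, 12 were lower on both Men1 siRNA arrays and 6 passed the threshold. Their summed intensity was 1556 and 2664 on the Men1 siRNA arrays, against 35458 and 21899 on the scramble siRNA arrays. Of 9 fibroblast markers, 9 were lower and 2 passed, with sums of 4547 and 4440 against 34153 and 37230. The 6 immune and endothelial markers summed to 2033 and 2219 with Men1 siRNA, against 9574 and 5209 with scramble siRNA; 0 of 6 passed in limma and 5 were lower with an unadjusted p under 0.05, while the leukocyte gene Ptprc overlapped, with 497 and 399 against 761 and 189. Of these epithelial, fibroblast, immune and endothelial markers, 0 were under 100 on all 4 arrays. Over all 44170 targets, 0.34% passed in limma, 13.6% had an unadjusted p under 0.05 and 21.3% were lower on both Men1 siRNA arrays. In bulk RNA, fewer cells of a type and less RNA per cell cannot be told apart.

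Of the 62 targets, 2 passed an adjusted p of 0.05 in limma's fit across all targets, and both were lower with Men1 siRNA: the zinc importer genes Slc39a4 and Slc39a8. Over all 44170 targets 0.34% passed, 0.312% as lower and 0.0272% as higher. At an unadjusted p under 0.05 there were 15 member targets (24.2%), 11 lower and 4 higher, against 13.6% of all targets (7.41% lower and 6.16% higher). The groups did not overlap for 34 member targets (54.8%), 23 lower and 11 higher with Men1 siRNA, against 46.6% of all targets (21.3% lower and 25.3% higher). The median log2 change, Men1 siRNA minus scramble siRNA, was −0.18 over the member targets and 0.06 over all targets. Of the members, 33 targets reached 100 on all 4 arrays and 4 reached it on none.

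**Figure D1:**
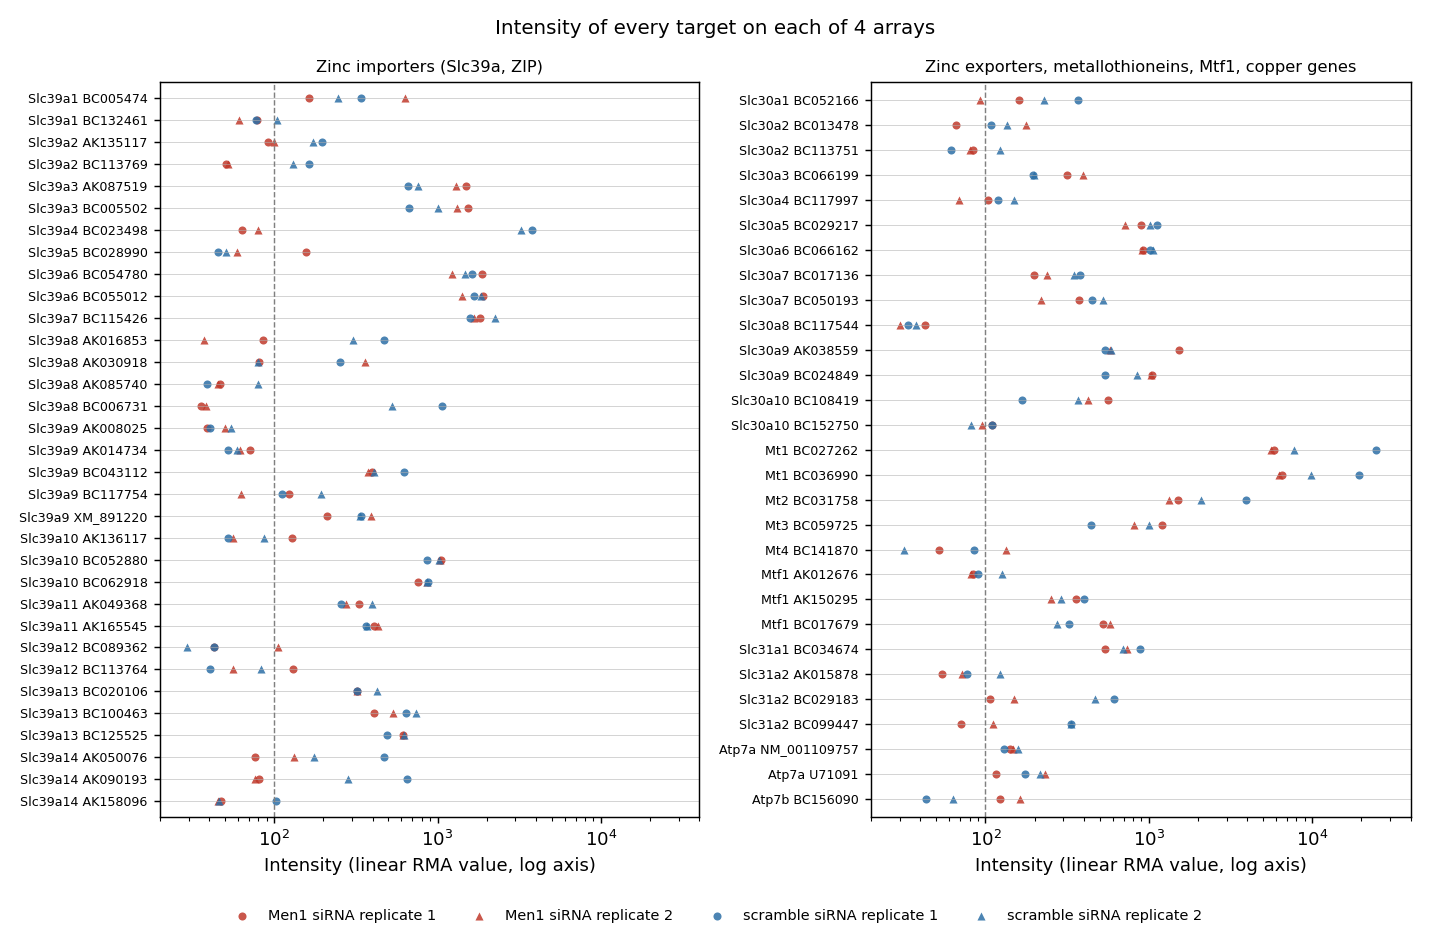
Intensity (log axis) of each of the 62 targets on the 2 Men1 siRNA arrays (red) and the 2 scramble siRNA arrays (blue), with circles for replicate 1, triangles for replicate 2 and a dashed line at 100. Slc39a4 read 63.3 and 79.9 with Men1 siRNA and 3783 and 3262 with scramble siRNA, whereas the arrays overlapped for most targets of Slc39a6, Slc39a7 and Slc39a10.

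Slc39a4 encodes ZIP4, the zinc importer of the intestinal epithelium that is mutated in acrodermatitis enteropathica. Its 1 target, BC023498, lies on chromosome 15, 76442812 to 76447282 (build MM9). It read 63.3 and 79.9 on the Men1 siRNA arrays and 3783 and 3262 on the scramble siRNA arrays. Both Men1 siRNA arrays lay under 100 and both scramble siRNA arrays far above it, so the gene was at least 35.1-fold lower. On the log2 scale the fit gave −5.63 ± 0.34 (SE; 2 arrays in each group), and limma's adjusted p was 0.0254. Without any 1 array its log2 change stayed between −5.79 and −5.46. It no longer passed, as no target of the array did in those fits, which leave 1 array in a group. It did not pass with intensities under 100 set to 100 (−5.13, adjusted p = 0.067). The epithelial markers moved the same way, with a median log2 change of −3.64 over the 12, and their part in the fall of Slc39a4 was not tested. The epithelial adhesion gene Cdh1 had 75.4 and 125.5 with Men1 siRNA, against 2865 and 1838 with scramble siRNA.

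Slc39a8 encodes ZIP8, a plasma membrane carrier of zinc and manganese, and its 4 targets gave different values, without a pair that passed a test of their difference. Target BC006731 (chromosome 3, 135489248 to 135551356, MM9) read 35.5 and 38.4 with Men1 siRNA and 1066 and 527 with scramble siRNA. It was at least 7.50-fold lower, and its fitted value was −4.34 ± 0.43 on the log2 scale (SE; limma, adjusted p = 0.0354). Target AK016853, which spans nearly the same stretch (135488242 to 135551355), read 84.8 and 37.1 with Men1 siRNA and 473 and 303 with scramble siRNA. It was at least 3.79-fold lower without passing (log2 change −2.75 ± 0.50, adjusted p = 0.115). These 2 targets span 62.1 kb and 63.1 kb of the locus, and at both of them every Men1 siRNA array was below 100 and every scramble siRNA array above it.

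The other 2 targets of Slc39a8 cover parts of the locus. AK085740 covers the first 34.1 kb (135488617 to 135522742) and read 46.9 and 45.5 with Men1 siRNA, against 38.6 and 79.7 with scramble siRNA. It was under 100 on all 4 arrays and carries no information on a change. AK030918 covers the last 4.4 kb (135547123 to 135551532) and read 80.4 and 357 with Men1 siRNA, against 252 and 79.7 with scramble siRNA. Its groups overlapped, and each group held 1 array above and 1 array below 100 (log2 change 0.26 ± 0.85, adjusted p = 0.919). The difference between targets was tested on within-array log2 ratios over 31689 pairs of targets of the same gene. The change of AK030918 minus that of BC006731 was 4.60 ± 0.74 (SE), which did not pass in limma (adjusted p = 0.297; unadjusted p = 0.000645), and its size rests in part on intensities under 100. No pair of any gene passed (0% of pairs), with 3035 pairs (9.58%) at an unadjusted p under 0.05. Without any 1 array the log2 change of BC006731 stayed between −4.85 and −3.84. It no longer passed, as no target of the array did in those fits. With a floor at 100 its log2 change was −2.91 (adjusted p = 0.293). The epithelial and fibroblast markers and 5 of the 6 immune and endothelial markers were lower on the same Men1 siRNA arrays, and their part in the lower values of Slc39a8, Slc39a14, Slc39a2, Slc31a2 and Steap3 was not tested.

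**Figure D2:**
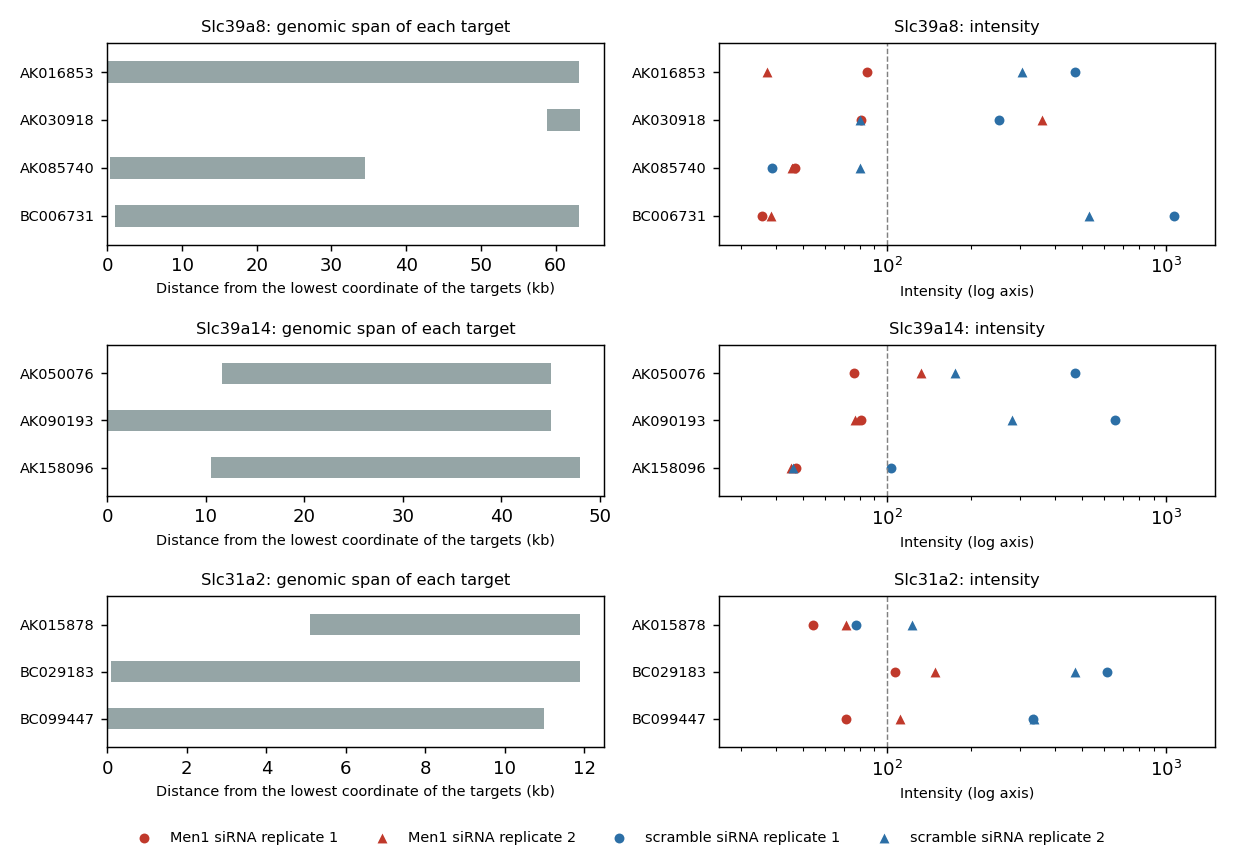
Left, the genomic span of each target of Slc39a8, Slc39a14 and Slc31a2 in kb from the lowest coordinate of the gene's targets; right, the intensity (log axis) of each target on the Men1 siRNA arrays (red) and scramble siRNA arrays (blue), with a dashed line at 100. Slc39a8 targets BC006731 and AK016853 separate the groups, and the 34.1 kb and 4.4 kb targets do not.

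Slc39a14 encodes ZIP14, a carrier of zinc, iron and manganese that is closely related to ZIP8. Its target AK090193 (chromosome 14, 70703273 to 70748240) read 80.3 and 76.5 with Men1 siRNA and 654 and 281 with scramble siRNA. That is at least 4.29-fold lower without passing (log2 change −2.45 ± 0.48, limma adjusted p = 0.133). Target AK050076 read 75.8 and 132 against 469.9 and 175 (−1.52 ± 0.57, adjusted p = 0.335). Both targets had their Men1 siRNA arrays below their scramble siRNA arrays, with scramble siRNA replicate 1 the highest. The third target, AK158096, had 47.2 and 45.1 with Men1 siRNA and 103 and 45.9 with scramble siRNA, so that only 1 array reached 100. Without scramble siRNA replicate 1 the log2 changes were −1.84 for AK090193 and −0.81 for AK050076.

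Slc39a2 encodes ZIP2, a zinc importer known from skin. Its target BC113769 read 50.7 and 52.2 with Men1 siRNA and 163 and 129.9 with scramble siRNA, at least 1.45-fold lower (fitted log2 change −1.50 ± 0.33, limma adjusted p = 0.172). Target AK135117 had 92.0 and 100.4 against 197 and 173 (−0.94 ± 0.33, adjusted p = 0.312). The groups were apart at both targets without passing.

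Slc39a3, which encodes the importer ZIP3, lay in the other direction at both of its targets. AK087519 read 1484 and 1306 with Men1 siRNA and 662 and 763 with scramble siRNA (log2 change 0.97 ± 0.33, limma adjusted p = 0.306). BC005502 read 1538 and 1319 against 665 and 1001 (0.80 ± 0.37, adjusted p = 0.41). The 2 targets gave close values on every array but scramble siRNA replicate 2. Slc39a5 encodes ZIP5, an importer of the intestine and pancreas; it read 156 and 59.1 with Men1 siRNA and 45.4 and 50.5 with scramble siRNA, so that 1 of 4 arrays exceeded 100.

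The other importers did not pass either. Slc39a7 encodes ZIP7, which releases zinc from the endoplasmic reticulum and Golgi, and read 1828 and 1668 with Men1 siRNA and 1581 and 2259.7 with scramble siRNA. Slc39a6, a gene of the ZIP family first described as oestrogen-responsive in human breast cancer cells, had log2 changes of −0.03 ± 0.37 and −0.10 ± 0.34 at its 2 targets. Slc39a10, its close relative, had 0.14 ± 0.33 and −0.10 ± 0.32 at the 2 targets above 100 and 0.33 ± 0.52 at AK136117. The groups of these genes overlapped at every target except BC052880 of Slc39a10, where 1054 and 1029.5 stood against 864 and 1028. Limma's adjusted p was 0.816 or higher for each.

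Slc39a1 encodes the widely expressed plasma membrane importer ZIP1. Its target BC005474 read 164 and 631 with Men1 siRNA and 341 and 247 with scramble siRNA, and the spread within the Men1 siRNA group exceeded any difference between groups (log2 change 0.15 ± 0.66). The other target of Slc39a1, BC132461, read 78.6 and 61 against 77.3 and 103.6, and its groups overlapped (−0.37 ± 0.36). Slc39a13, the gene of a Golgi zinc carrier mutated in a form of Ehlers-Danlos syndrome, had −0.21 ± 0.34, −0.55 ± 0.34 and 0.15 ± 0.33 at its 3 targets. Slc39a11 had −0.08 ± 0.37 and 0.19 ± 0.32. Slc39a9, with 5 targets, ranged from −0.74 ± 0.48 at BC117754 to 0.26 ± 0.33 at AK014734, and 2 of those 5 were under 100 on all 4 arrays. Its brightest target, BC043112, read 395.7 and 375.5 with Men1 siRNA and 623.8 and 407.2 with scramble siRNA. The groups were apart there without passing (−0.39 ± 0.37). Slc39a12, an importer gene known from the brain, did not exceed 130.5 on any array at its 2 targets (log2 changes 0.93 ± 0.52 and 0.56 ± 0.56). Over the whole ZIP family, 33 targets of 14 genes, 2 fell, 0 rose and 31 did not pass, with a median log2 change of −0.10. At an unadjusted p under 0.05 there were 7 lower targets and 1 higher (24.2%, against 13.6% of all targets).

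**Figure D3:**
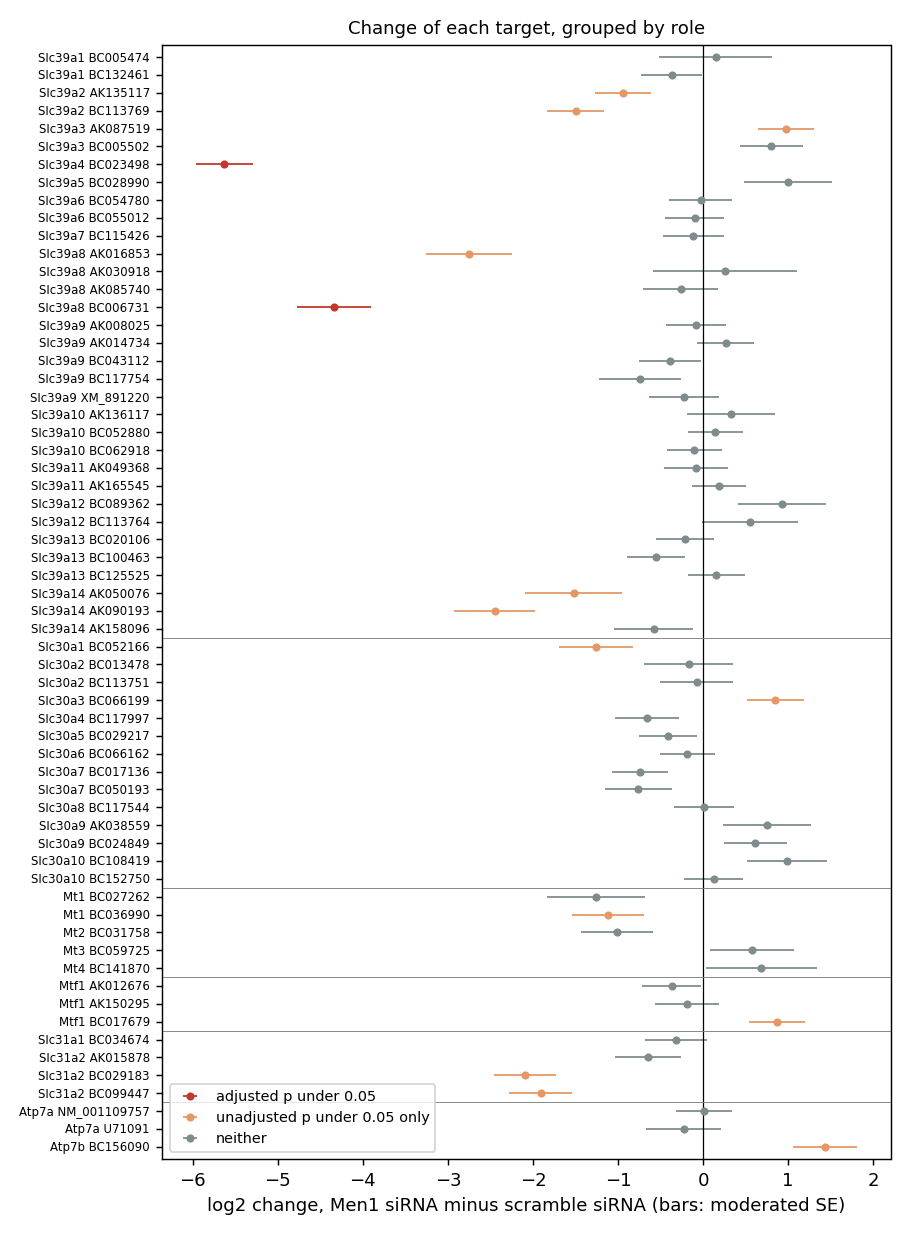
Log2 change (Men1 siRNA minus scramble siRNA) of each of the 62 targets with its moderated SE, grouped by role from zinc importers at the top to copper ATPases at the bottom. Red marks an adjusted p under 0.05 (Slc39a4 at −5.63 and Slc39a8 BC006731 at −4.34), orange an unadjusted p under 0.05 only, grey neither.

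Among the zinc exporters, 14 targets of 10 genes, 0 passed in limma. At an unadjusted p under 0.05 there were 2, 1 in each direction (14.3%, against 13.6% of all targets). The median log2 change of the exporters was −0.12. Slc30a1 encodes ZnT1, the exporter of the plasma membrane. It read 159 and 92.2 with Men1 siRNA and 367 and 229 with scramble siRNA (chromosome 1, 193730668 to 193733984; log2 change −1.26 ± 0.44, adjusted p = 0.315). The groups did not overlap, although 1 Men1 siRNA array was under 100. Slc30a3, the gene of the synaptic vesicle carrier ZnT3, read 317 and 397.5 with Men1 siRNA and 195 and 199.5 with scramble siRNA. That is a log2 change of 0.85 ± 0.33, with both Men1 siRNA arrays higher (adjusted p = 0.353). The 4 measured markers of glutamatergic forebrain neurons were all positive, with a median of 0.47 and sums of 12227 and 11650 against 5939 and 10742, and 0 of them passed (0 at an unadjusted p under 0.05). Their part in the value of Slc30a3 was not tested.

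Slc30a7 encodes ZnT7, which carries zinc into the Golgi. Its target BC017136 read 199 and 236.5 with Men1 siRNA and 377 and 349.5 with scramble siRNA, and BC050193 read 374 and 220.1 against 452 and 523. The log2 changes were −0.74 ± 0.33 and −0.76 ± 0.39 (limma adjusted p = 0.397 and 0.458), and both targets had the Men1 siRNA arrays below the scramble siRNA arrays. Its partners of the early secretory pathway, Slc30a5 and Slc30a6, encode ZnT5 and ZnT6 and had −0.41 ± 0.34 and −0.19 ± 0.32. Slc30a5 read 899 and 712.5 with Men1 siRNA and 1121 and 1014 with scramble siRNA. Each of these 3 Golgi genes was lower on both Men1 siRNA arrays without passing. Over all targets, 21.3% were lower on both Men1 siRNA arrays.

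Slc30a10 encodes ZnT10, an exporter that carries manganese in human cells. Its target BC108419 read 565 and 427 with Men1 siRNA and 167 and 367 with scramble siRNA (log2 change 0.99 ± 0.47, limma adjusted p = 0.427), and without scramble siRNA replicate 1 the log2 change was 0.42. Its other target, BC152750, stayed between 81.9 and 110.4 on the 4 arrays. Slc30a9, at BC024849, read 1042 and 1025 against 540.3 and 847.5 (0.61 ± 0.37), and AK038559 read 1531 and 576 against 537 and 583 (0.75 ± 0.52). At AK038559 only Men1 siRNA replicate 1 stood apart. Slc30a4, the gene of a carrier that loads zinc into milk in mice, read 104 and 68.4 with Men1 siRNA and 119 and 149.5 with scramble siRNA. Slc30a2 did not exceed 176 on any array at its 2 targets, and Slc30a8, the zinc carrier of insulin granules, read 29.9 to 42.5, under 100 on all 4 arrays.

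The metallothionein genes lie side by side on chromosome 8, in the order Mt4, Mt3, Mt2 and Mt1 between 96661141 and 96704227 (MM9). Mt1 and Mt2 encode the metallothioneins of most tissues, which Mtf1 induces. Mt1 read 6497 and 6232 with Men1 siRNA and 19429.7 and 9806 with scramble siRNA at BC036990. At BC027262 it read 5871 and 5617 with Men1 siRNA and 24478 and 7717 with scramble siRNA. Both targets put the Men1 siRNA arrays close together and below the scramble siRNA arrays, which were far apart from each other. The log2 changes were −1.12 ± 0.43 (limma adjusted p = 0.344) and −1.26 ± 0.58 (adjusted p = 0.411).

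Mt2 had the same arrangement, with 1514 and 1322 on the Men1 siRNA arrays and 3922 and 2075 on the scramble siRNA arrays (log2 change −1.01 ± 0.42, limma adjusted p = 0.373). Scramble siRNA replicate 1 was the highest array for all 3 of these targets and for Slc30a1. Without it the log2 changes were −0.62 and −0.43 for Mt1 and −0.55 for Mt2, against −0.92 for Slc30a1. Mt1 and Mt2 are close paralogs, and whether their probes separate them was not checked, since probe sequences were not used here. Mt3 read 1207 and 815 with Men1 siRNA and 444 and 1002 with scramble siRNA, and its groups overlapped (0.57 ± 0.49). Mt4, the metallothionein of stratified squamous epithelium, read 52.3 and 133 against 85.3 and 31.6, with 1 array of 4 above 100. Of the 5 metallothionein targets, 0 passed in limma and 1 had an unadjusted p under 0.05, lower with Men1 siRNA. An unadjusted p under 0.05 was found for 13.6% of all targets (7.41% lower and 6.16% higher).

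The promoter windows of Mt1, Mt2 and Slc30a1 are shown because these 3 genes are textbook targets of Mtf1 and were each lower on both Men1 siRNA arrays without passing. The sequences are those of RefSeq on build GRCm38.p6, 250 bases before to 50 bases after the annotated start, on the plus strand. Capitals mark the core of the metal response element that Mtf1 binds, searched as TGCACNC or TGCGCNC on both strands. A site on the minus strand therefore reads as its reverse complement.
Mt1: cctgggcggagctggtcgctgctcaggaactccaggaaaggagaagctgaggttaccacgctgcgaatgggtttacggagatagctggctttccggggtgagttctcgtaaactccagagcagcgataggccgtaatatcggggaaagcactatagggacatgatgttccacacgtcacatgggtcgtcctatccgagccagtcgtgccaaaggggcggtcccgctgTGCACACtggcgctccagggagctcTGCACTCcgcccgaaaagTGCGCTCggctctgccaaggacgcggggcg
Mt2: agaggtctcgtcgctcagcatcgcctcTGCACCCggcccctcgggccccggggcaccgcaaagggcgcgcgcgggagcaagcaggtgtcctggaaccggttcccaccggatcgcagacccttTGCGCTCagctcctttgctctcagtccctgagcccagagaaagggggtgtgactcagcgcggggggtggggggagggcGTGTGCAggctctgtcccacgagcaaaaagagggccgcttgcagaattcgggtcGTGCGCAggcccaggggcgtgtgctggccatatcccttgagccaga
Slc30a1: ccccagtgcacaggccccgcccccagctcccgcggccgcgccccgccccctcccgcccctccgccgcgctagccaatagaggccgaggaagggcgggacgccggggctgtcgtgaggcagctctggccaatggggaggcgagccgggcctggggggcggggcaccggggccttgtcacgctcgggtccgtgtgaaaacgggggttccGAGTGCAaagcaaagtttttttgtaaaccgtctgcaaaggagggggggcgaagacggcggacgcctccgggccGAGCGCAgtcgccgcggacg
The Mt1 window lies at chr8:94178839-94179138, the Mt2 window at chr8:94172368-94172667 and the Slc30a1 window at chr1:191906531-191906830. They held 3, 4 and 2 matches. Of 32851 windows of the same length over all genes, 25.7% held at least 1 match, 7.11% at least 2, 1.97% at least 3 and 0.517% at least 4; overlapping matches were counted separately. Windows were found for 29 of the 33 member genes, and 19 of their 34 windows (55.9%) held at least 1 match. Slc30a8, Slc39a4, Slc39a6 and Slc39a14 were not matched. The Slc31a2 window and 1 of the 2 Slc39a8 windows held 1 match each, and the Mtf1 window held 0. The windows of Slc30a10, higher without passing at its brighter target, and Slc30a4, lower without passing, held 3 each. Those of Slc30a2 and Atp7a, whose groups overlapped at every target, held 2 each. Whether matches go with the direction of change was not tested. A match is a run of letters and not a measured binding site.

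Mtf1 itself had 3 targets on chromosome 4. BC017679 (124479853 to 124521995) read 521 and 576 with Men1 siRNA and 326 and 275 with scramble siRNA, a log2 change of 0.87 ± 0.33 (limma adjusted p = 0.34). AK150295, which covers nearly the same stretch, read 356 and 252 against 400.5 and 292 (−0.19 ± 0.37). AK012676, within 2.8 kb at one end, read 83.5 and 82.0 against 90.5 and 126. The first of these separated the groups and the second did not, with a difference between their changes, AK150295 minus BC017679, of −1.06 ± 0.48 (adjusted p = 0.553).

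The 2 copper importer genes are neighbours on chromosome 4. Slc31a2 encodes Ctr2, a relative of Ctr1 found largely on endosomes and lysosomes. Its target BC029183 (61947571 to 61959445) read 107 and 149 with Men1 siRNA and 615 and 469 with scramble siRNA. The log2 change was −2.09 ± 0.37 (SE, n = 2 per group) and did not pass in limma (adjusted p = 0.103). BC099447 read 71.1 and 111 against 333 and 335.5 (−1.91 ± 0.37, adjusted p = 0.132). Both targets kept the Men1 siRNA arrays well below the scramble siRNA arrays. BC029183 passed in limma with a prior that follows intensity (adjusted p = 0.036) and on the authors' processed values. It also passed among targets at 100 or more on both arrays of a group, a filter that depends on the outcome. With a replicate block, quantile or median normalization, a pseudocount of 32, 1 target per gene or a floor at 100 it did not pass. The third target, AK015878, covers only the upper 6.9 kb and read 54.2 and 71.5 against 77.6 and 123. Slc31a1, the gene of the main copper importer Ctr1, read 537.5 and 739 with Men1 siRNA and 888 and 696 with scramble siRNA, and its groups overlapped (−0.32 ± 0.36, adjusted p = 0.732).

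Of the copper ATPases, Atp7b, which is known from liver, read 122 and 164 with Men1 siRNA and 43.2 and 63.2 with scramble siRNA (chromosome 8, 23105124 to 23170527). Both scramble siRNA arrays were under 100, so that it was at least 1.41-fold higher without passing (fitted log2 change 1.44 ± 0.38, limma adjusted p = 0.223). Atp7a, the copper ATPase of most other tissues, read 142 and 147 with Men1 siRNA and 131 and 158 with scramble siRNA at NM_001109757. At U71091 it read 117 and 232 against 173.5 and 214. The groups overlapped at both targets (0.01 ± 0.33 and −0.23 ± 0.44).

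Other genes of metal handling were taken from 3 lists, with 1 target per gene, the brightest. Of 16 genes of copper chaperones, metalloreductases and copper enzymes, 1 fell, 0 rose and 15 did not pass, with a median log2 change of 0.29. Over all targets 0.34% passed. At an unadjusted p under 0.05 in limma there were 6 of these genes, 3 lower and 3 higher (37.5%, against 13.6% of all targets). Steap3 encodes a metalloreductase that reduces iron and copper. It read 245 and 288.5 with Men1 siRNA and 3105 and 3427 with scramble siRNA, a fall of 3.62 ± 0.33 on the log2 scale (that is −3.62; limma adjusted p = 0.034). Its other target read 286 and 371 against 2426 and 2502 and passed too (−2.92 ± 0.34, adjusted p = 0.0435). Both targets separated the groups by a wide margin. Heph, the gene of the copper-dependent ferroxidase hephaestin, was at least 2.81-fold lower at its brightest target without passing (limma adjusted p = 0.103). That target read 70.7 and 83.4 with Men1 siRNA and 283 and 278.5 with scramble siRNA. Of the 4 Heph targets, 1 was positive: AK032895 read 107.6 and 125.3 against 63.5 and 48.3 (1.07 ± 0.345, adjusted p = 0.288). AK086923 and AK129194 were lower on both Men1 siRNA arrays (−2.07 and −1.47) without passing. Steap2, another metalloreductase gene, had 336 and 541 against 67.4 and 166 (2.01 ± 0.53, adjusted p = 0.224). Its other 2 targets had 0.29 and 0.23 but were under 100 on all 4 arrays and carry no information on a change.

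Of 5 other zinc handling genes 0 passed in limma, and 2 had an unadjusted p under 0.05 (40.0%, against 13.6% of all targets). Tmem163, which encodes a zinc efflux protein of synaptic vesicles, read 442 and 734 with Men1 siRNA and 184 and 310.4 with scramble siRNA (1.25 ± 0.44, adjusted p = 0.317). Trpm7, the gene of a divalent cation channel kinase, read 157 and 152 against 259.6 and 285 (−0.82 ± 0.32, adjusted p = 0.354). The groups overlapped at its other targets, AK162483 (−0.04 ± 0.39) and AK047673 (−0.24 ± 0.36). Ap3b2, a subunit gene of the neuronal AP-3 coat, had 0.30 ± 0.33. The list median was 0.23. Of 11 genes induced by metal or oxidative stress, 0 passed and 1 had an unadjusted p under 0.05 (9.09%, against 13.6% of all targets), with a median of 0.29. Csrp1, which encodes a LIM domain protein, had −1.16 ± 0.38 (adjusted p = 0.293), Txnrd1, the thioredoxin reductase gene, −0.54 ± 0.35, and Nqo1, a quinone reductase gene, 0.62 ± 0.34. Of the 11, 7 were positive and 4 negative.

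**Figure D4:**
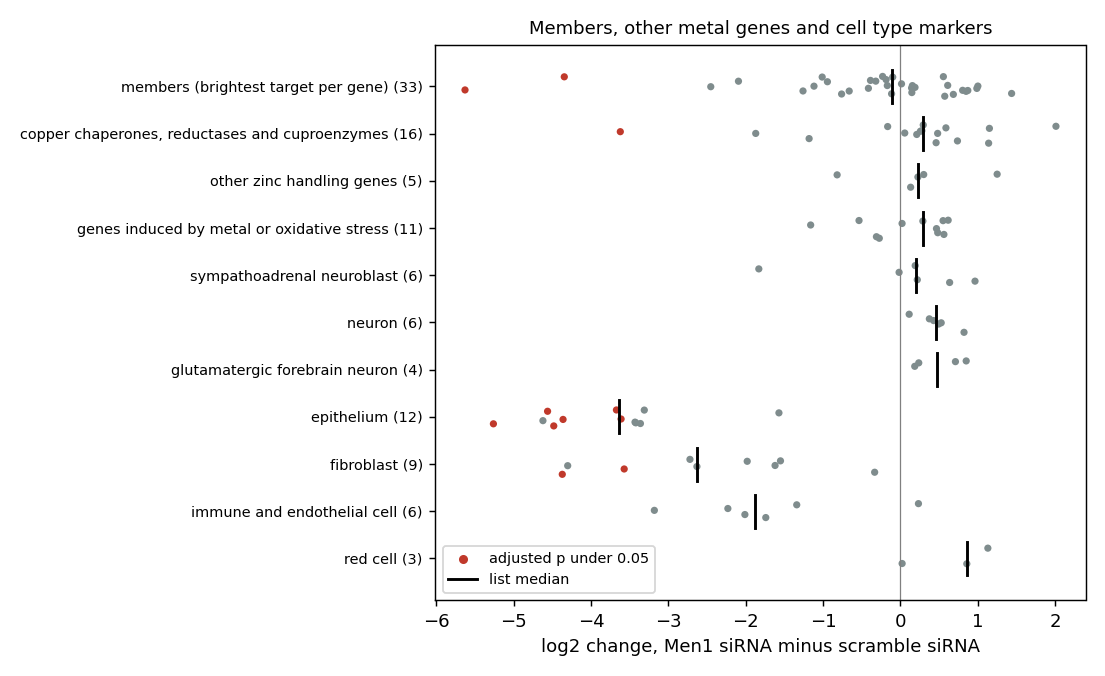
Log2 change (Men1 siRNA minus scramble siRNA) of the brightest target of each gene, for the 33 members, the other metal genes and marker lists of cell types, with the number of genes in brackets, a black line at each median and red for an adjusted p under 0.05. The member median was −0.11, with 18 genes negative and 15 positive, against −3.64 for epithelial and −2.63 for fibroblast markers.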

How the data were processed

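RNA of 4 samples was measured on one array each. Per the file headers, each deposited file gives 1 linear intensity per target, an RMA (robust multi-array average) summary of its probes. Per the labels' protocols, biotinylated cRNA was made by a NimbleGen procedure, although the series text names an Agilent array. How the background was corrected is not stated there. One control row of 5000 random probes was left out. The authors' separate table of processed values lists the 20620 targets at 100 or more on all 4 arrays and no others, which set the level of 100; its 2 scramble siRNA columns hold each other's values, and it was used only as an alternative. The image names inside the files number the Men1 siRNA arrays differently from the labels, which were followed.

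Log2 intensities, with no pseudocount and no further normalization, were fitted over all 44170 targets by group alone with limma 3.58.1 (lmFit, eBayes; R 4.3.3), with two-sided p-values and Benjamini-Hochberg adjustment at 0.05. With 2 arrays in each group, the smallest two-sided p of an exact permutation test is 0.33. A bound ("at least") sets the brighter group's mean log2 value against 100 where both arrays of the dimmer group lay under it. Of 24203 gene IDs, 21583 matched a current RefSeq symbol. Coordinates are those of the files (MM9), and promoter windows are on GRCm38.p6. Members were taken by name; of the other lists, members past the threshold or with the 3 smallest p-values are named. Members and lists were chosen with earlier results of these data known, and the label check used the markers of neuroblasts, neurons, forebrain neurons, epithelium, fibroblasts, immune and endothelial cells and red cells. The value of 1 marker is not reported here.

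On arrays simulated for Men1 siRNA against scramble siRNA (44170 targets, 5 runs, 200 targets changed per run) the fit recovered 0% of changes of 1 log2 unit, 0.8% of 2, 70% of 4 and 94% of 6, and 20 of 432 calls were of unchanged targets. The number of arrays limits the precision. Replicate numbers as labelled did not pair the arrays: deviations of the 2 arrays numbered 1 correlated with r = −0.17. The 2 deviations within a group mirror each other, so this value does not exclude a pairing with crossed numbers. Tables and plots were made in Python 3.11.15 with numpy 2.4.6, pandas 2.3.3 and matplotlib 3.10.9.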

Additional observations from a re-analysis of the deposited data

How the results depend on the processing

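Over all targets, 150 passed in limma's fit, and 2 of the member targets. With the replicate number as a replicate block 144 and 2 passed, and the block changed no call among the members; the numbers do not pair the arrays (r = −0.17), and with crossed numbers, added after the data were seen, 165 and 2 passed. With any 1 array left out 0 targets passed, members included (lowest and highest 0), with 3678 to 5799 of all targets and 7 to 15 member targets at an unadjusted p under 0.05; those fits have 1 array in a group, which is assumed to vary like the other group. Among targets at 100 or more on both arrays of a group, 946 passed and 6 members, adding Slc39a8 AK016853, Slc39a14 AK090193 and Slc31a2 BC029183 and BC099447. Of the 6 members, all but Slc31a2 BC029183 entered that fit only through the scramble siRNA group, where they were high. That filter depends on the outcome, so its added calls are no support. With a prior that follows intensity 1070 and 5 passed, without Slc31a2 BC099447. A pseudocount of 32 gave 387. On the authors' processed values 538 passed with 1 member, Slc31a2 BC029183, as they include neither Slc39a4 nor Slc39a8. With 1 target per gene 94 passed, of fewer tests, and 2 members. A floor at 100 gave 48 and 0 members (5283 and 13 at an unadjusted p under 0.05), and an adjusted p under 0.01 gave 0 and 0 (5993 and 15). For pairs of targets, 0 passed under each of 9 alternatives. Of 608 values of single members with all arrays used, 2 turned sign: Slc30a8 (−0.0134 with quantile normalization) and Slc30a2 BC013478 (0.13 with the floor). The causes were not tested. With 1 array left out 31 values turned sign, none of a called target; these targets ranged from −0.13 to 0.14 for Atp7a NM_001109757, from −0.72 to 0.27 for Atp7a U71091, from −0.0146 to 1.16 for Mt3 BC059725, from −0.0315 to 1.40 for Mt4 BC141870, from −0.44 to 0.058 for Mtf1 AK150295, from −0.0839 to 0.33 for Slc30a10 BC152750, from −0.87 to 0.54 for Slc30a2 BC013478, from −0.58 to 0.42 for Slc30a2 BC113751, from −0.24 to 0.27 for Slc30a8 BC117544, from −0.83 to 1.12 for Slc39a1 BC005474, from −0.27 to 0.93 for Slc39a10 AK136117, from −0.40 to 0.23 for Slc39a11 AK049368, from −0.0537 to 1.16 for Slc39a12 BC113764, from −0.0178 to 0.33 for Slc39a13 BC125525, from −1.16 to 0.0057 for Slc39a14 AK158096, from −0.34 to 0.29 for Slc39a6 BC054780, from −0.31 to 0.11 for Slc39a6 BC055012, from −0.37 to 0.14 for Slc39a7 BC115426, from −0.82 to 1.34 for Slc39a8 AK030918, from −0.79 to 0.26 for Slc39a8 AK085740, from −0.29 to 0.12 for Slc39a9 AK008025 and from −0.68 to 0.23 for Slc39a9 XM_891220. Intensities near 100 limit the size of every change that rests on a dim group.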
